A study of Homo sapiens with 24 samples.

Results

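The INTS8-dTAG line of DLD1 cells, a human colorectal adenocarcinoma line, was compared after 3 h of dTAG13 and after 3 h of the vehicle DMSO, with 2 libraries in each group. These 4 libraries of the 24 in the series were chosen by title: batch 1, an INTS8 dTAG knock-in, and no added INTS8-N211del. Both groups carry the knock-in, which puts a degradation tag on INTS8, and they differ by the compound alone. Transcripts made during a short labelling window were measured by TT-seq (transient transcriptome sequencing), which reads new RNA rather than the stored pool. Batch 1 also holds an INTS11 knock-in of the same tag (the INTS11 line) and an INTS8 knock-in with ectopic INTS8-N211del (the N211del line), each with 2 dTAG13 and 2 DMSO libraries at 3 h. No untagged line given dTAG13 was analysed here, so an action of the compound apart from the tag cannot be told apart from loss of the protein. INTS8, INTS11 and PPP2CA RNA were not analysed here, and dTAG13 acts on protein, so RNA could not have checked the loss.

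Integrator is a large complex that ends transcription early at many genes, close to where RNA polymerase II pauses. INTS11 is its endonuclease, which cuts the nascent RNA, and INTS8 is the subunit that holds the phosphatase PP2A, which removes phosphates from the polymerase and from pausing factors against the kinase P-TEFb. Genes with strong pausing, many of them rapidly induced by growth factors or stress, are well known as places where Integrator acts. DLD1 cells carry mutant APC, so Wnt signalling runs high in them without a stimulus.

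Deposited values are whole-number units divided by gene length in kb, given below as units per kb. The INTS8 libraries summed to 7311323 and 7419322 units in DMSO and to 8119831 and 7576278 after dTAG13, with a median of 515.5 to 579.5 units a gene. The labels call the replicates biological duplicates. The counts of the 2 DMSO libraries matched within counting noise, with a chi-square of 0.988 per gene over 6579 genes, as did those of 2 other groups in batch 1, while the 2 dTAG13 libraries differed by more (1.395 per gene). Of 10 colorectal epithelial markers 7 were analysed, EPCAM, CDH1, KRT8, KRT18, KRT19, CDX2 and CDH17, and their values summed to 2425 and 2422 units per kb in DMSO and to 2122 and 2096 after dTAG13. The highest of them had a DMSO mean of 1148 and weighs most in these sums. The 7 did not move together: log2 fold changes were 0.19 for CDX2, 0.06 for CDH1, −0.17 for CDH17 and −0.28 for EPCAM. Of 8 fibroblast, 8 immune and 6 endothelial markers 0 were among the genes analysed. Of 7 neuronal markers 1 was, TUBB3, a tubulin gene also expressed by many carcinoma lines, at 30.8 and 32.3 units per kb in DMSO and at 86.2 and 89.7 after dTAG13 (log2 fold change 1.48 ± 0.07 SE).

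After dTAG13 more genes were called higher than lower, and the large changes were nearly all rises. With limma's adjusted p under 0.05 as the call, 2277 of 6579 genes were higher after dTAG13 (34.6%) and 1379 were lower (21.0%), together 55.6%. At a fold of at least 2 the numbers were 545 higher (8.28%) and 62 lower (0.942%), and at a fold of at least 4 they were 125 and 6. Small changes made up many of the calls: 2279 of them were under 1.5-fold, and the median over all tested genes was 0.06 on the log2 scale. Fold changes here are of log2(value + 0.1), which understates the change of genes with low values. With each library centred on its median, all fold changes shifted down by 0.1, and higher genes went from 62.3% of the calls to 45.7% (2017 higher and 2398 lower). With the closely matching DMSO libraries counted as 1 sample there were 1799 higher and 836 lower genes, and without dTAG13 replicate 2 the lower genes numbered 904. The fit with the DMSO libraries counted as 1 sample also averaged the 2 other pairs that matched within counting noise, N211del DMSO and INTS11 dTAG13. That phrase names the same fit below, so calls lost there cannot be put down to the INTS8 DMSO pair alone. Counts of called members of a list are to be read against 34.6% and 21.0%, and both shares vary with level, as given below.

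Of the 20 genes that rose most, 12 had a DMSO mean under 1 unit per kb, and they code for proteins of many kinds. CCDC80, which codes for a secreted matrix protein, stood at 0.338 and 0.225 units per kb in the DMSO libraries and at 11.5 and 10.7 in the dTAG13 libraries. Its log2 fold change was 4.89 ± 0.16 (SE), with adjusted p = 1.05e-16. The groups lay far apart; every gene in the plot of the 40 largest changes was chosen to have groups that do not overlap. SEMA3G, a secreted semaphorin that guides axons and vessels, read 0.994 in both DMSO libraries and 19.5 and 16.7 after dTAG13 (4.05 ± 0.15, adjusted p = 6.91e-16). MDGA1, a cell surface protein of the immunoglobulin family, read 0.104 and 0.0746, then 3.07 and 3.39 (4.14 ± 0.20, adjusted p = 6.17e-14). Both are best known from the nervous system, and so is DISP3, a Patched-family membrane protein, which went from 0.565 in each DMSO library to 8.41 and 7.81 (3.62 ± 0.15).

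**Figure D1:**
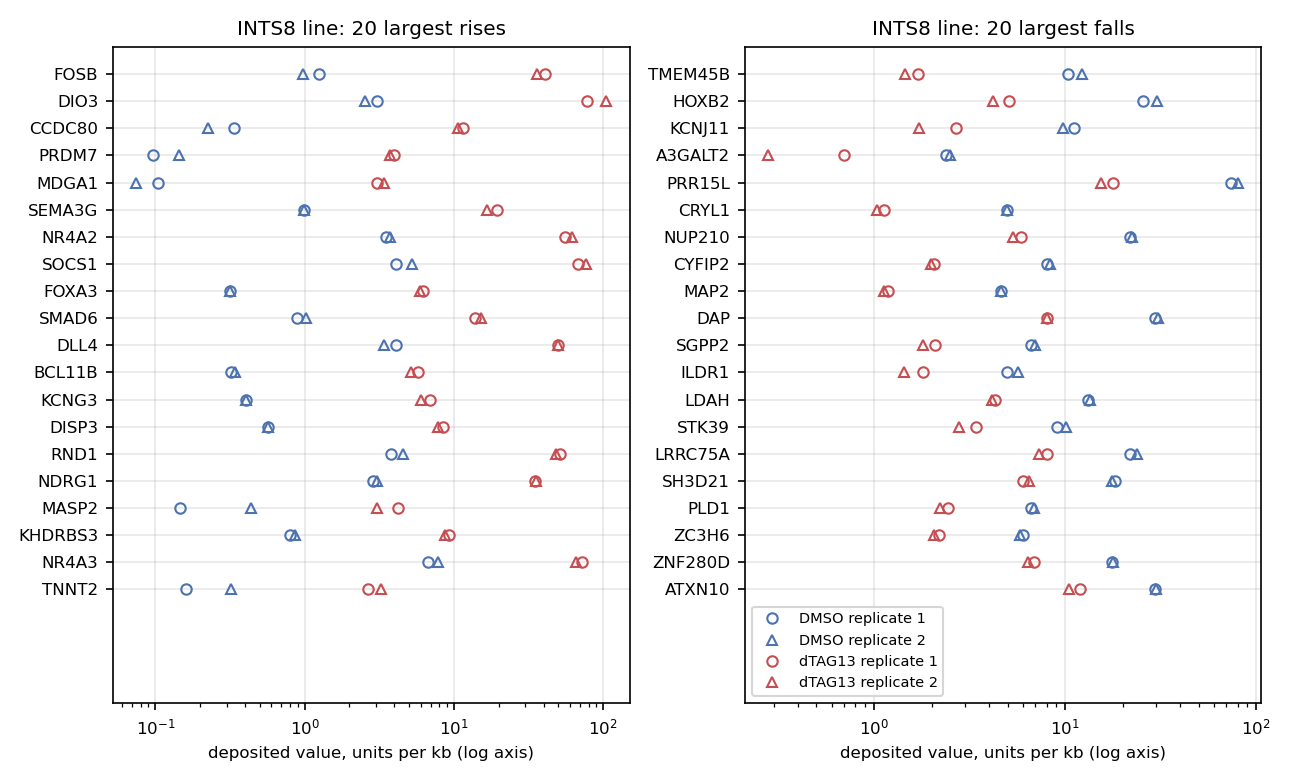
Deposited value in units per kb (log axis) in each INTS8 library for the 20 largest rises (left) and the 20 largest falls (right); blue is DMSO, red is dTAG13, circles are replicate 1 and triangles replicate 2. Genes were chosen to have both red points on the same side of both blue points. DMSO means of the rising genes span 0.0895 to 7.27.

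Transcription factor and signalling genes were among the same 20. NR4A2, an orphan nuclear receptor induced within minutes by many stimuli, read 3.51 and 3.75 units per kb in DMSO and 55.4 and 62.1 after dTAG13 (log2 fold change 3.98 ± 0.08, adjusted p = 8.76e-20). Its paralog NR4A3 read 6.68 and 7.86, then 72.2 and 65.4 (3.23 ± 0.09). SOCS1, the feedback inhibitor of cytokine receptors that signal through JAK kinases, read 4.08 and 5.24, then 67.6 and 76.9 (3.93 ± 0.15, adjusted p = 1.59e-09). In all 3 genes the lowest treated library was many times the highest control. SMAD6, which blocks BMP signalling, rose from 0.893 and 1.03 to 13.8 and 15.1 (3.78 ± 0.14). RND1, a small GTP-binding protein that loosens actin fibres, rose from 3.78 and 4.58 to 51.2 and 48.1 (3.54 ± 0.10). BCL11B, a zinc finger factor of T cells and neurons, rose from 0.321 and 0.340 to 5.76 and 5.2 (3.70 ± 0.16). KCNG3, a modifier subunit of voltage-gated potassium channels, read 0.404 in both DMSO libraries and 6.91 and 6.0 after dTAG13 (3.70 ± 0.18), and the RNA-binding protein gene KHDRBS3 rose from 0.794 and 0.862 to 9.31 and 8.79 (3.30 ± 0.13).

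For 4 of the 20 the DMSO value rests on few units, so the size of the rise is loosely known. PRDM7 held 5 units in the 2 DMSO libraries together and 160 after dTAG13, a ratio of 32.0 with an exact 95% interval of 13.4 to 99.9. PRDM7 is nearly identical to PRDM9, and reads could be split between them. FOXA3, a pioneer factor of liver and gut, went from 6 to 115 units (ratio 19.2, 8.54 to 53.3). For MASP2, a protease of the complement system, the ratio was 12.5 (6.95 to 24.7), and for TNNT2, cardiac troponin T, it was 12.3 (6.27 to 27.7). These intervals cover counting error only.

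Promoters were read for the TATA box, a core element that positions the polymerase at many rapidly induced genes, because several of the leading genes hold one. RefSeq windows from 250 bases before to 50 after the start matched 5344 tested genes. The motif TATAAA, searched on both strands, was in 5.18% of these windows, in 12% of all 27195 RefSeq promoters, in 10.5% of the windows of genes at least 2-fold higher (44 of 420), in 13.5% at 4-fold (13 of 96) and in 6.38% of those at least 2-fold lower (3 of 47). Placed on the sense strand 40 to 20 bases before the start, it was in 1.42% of tested genes, in 4.76% of those at least 2-fold higher (20 of 420) and in 9.38% of those at least 4-fold higher (9 of 96). Among genes in the highest of 4 equal groups by level, such a placed TATAAA was in 5 of 19 windows of genes at least 2-fold higher, beside 2.50% of all windows in that group. In the lowest group the shares were 2.69% and 1.84%. TATAAA was 1 of 12 motifs searched and was taken up after the shares were seen, and the sets counted include the genes that drew attention to it. Of the others, the NF-kB site was in 11.5% of the windows at 4-fold (11 of 96) beside 6.46% of tested windows. The AP-1 site (TGAGTCA or TGACTCA) was in 5.21% (5 of 96) beside 3.24%. The interferon-stimulated response element was in 4.17% (4 of 96) beside 2.90%. The SMAD site (GTCTAGAC) was in 1 window of the 96, that of SMAD6, and in 7 of the 5344 tested windows (1.04% beside 0.131%). Lower shares were found for the cyclic AMP response element (TGACGTCA, 2.08% beside 3.22%), the shorter word TGACG within it (25% beside 33.3%), the hypoxia response element (ACGTG or GCGTG, 60.4% beside 64.1%), the E-box (CACGTG, 7.29% beside 10.3%) and the heat shock element (GAANNTTC, 4.17% beside 4.51%). The SRF CArG box and the NRF1 site were in 0 of the 96 windows at 4-fold, beside 1.18% and 2.15%. No share was tested, and nothing about binding was measured.

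The 250 bases before the start of FOSB (chr19:45467746-45467995, plus strand), DIO3 (chr14:101561245-101561494, plus strand) and FOXA3 (chr19:45864076-45864325, plus strand) are shown because each holds TATAAA, in capitals, beginning 30, 32 and 30 bases before the start. SMAD6 (chr15:66701986-66702235, plus strand) and SOCS1 (chr16:11256205-11256454, minus strand), which rose by similar amounts, are shown because their windows lack that word. All are read 5′ to 3′ from RefSeq on GRCh38.p14.
FOSB: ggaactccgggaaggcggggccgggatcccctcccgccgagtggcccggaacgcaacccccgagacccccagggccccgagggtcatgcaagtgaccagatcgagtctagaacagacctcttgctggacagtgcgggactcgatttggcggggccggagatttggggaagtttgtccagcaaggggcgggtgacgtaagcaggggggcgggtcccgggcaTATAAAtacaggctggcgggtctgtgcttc
DIO3: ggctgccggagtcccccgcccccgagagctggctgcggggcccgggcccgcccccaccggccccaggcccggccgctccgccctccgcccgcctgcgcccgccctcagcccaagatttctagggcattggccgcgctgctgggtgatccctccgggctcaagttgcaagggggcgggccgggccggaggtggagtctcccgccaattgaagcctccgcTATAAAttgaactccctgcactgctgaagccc
FOXA3: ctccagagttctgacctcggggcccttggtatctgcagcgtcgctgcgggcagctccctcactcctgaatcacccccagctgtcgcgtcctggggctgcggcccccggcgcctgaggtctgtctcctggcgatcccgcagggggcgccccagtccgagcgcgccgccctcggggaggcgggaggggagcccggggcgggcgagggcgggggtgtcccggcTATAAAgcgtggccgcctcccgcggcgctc
SMAD6: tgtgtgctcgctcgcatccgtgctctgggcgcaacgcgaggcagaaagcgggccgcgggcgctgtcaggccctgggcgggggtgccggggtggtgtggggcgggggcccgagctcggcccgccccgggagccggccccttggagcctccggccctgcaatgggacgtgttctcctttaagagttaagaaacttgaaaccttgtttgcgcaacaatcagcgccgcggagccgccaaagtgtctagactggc
SOCS1: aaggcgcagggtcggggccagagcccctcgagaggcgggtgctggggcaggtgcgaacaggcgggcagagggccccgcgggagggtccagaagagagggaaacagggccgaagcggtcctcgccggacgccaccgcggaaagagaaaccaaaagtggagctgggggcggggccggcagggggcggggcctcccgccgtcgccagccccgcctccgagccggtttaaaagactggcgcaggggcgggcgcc

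Genes that fell most were longer than those that rose most. Their DMSO means were 2.44 to 77.0 units per kb. A higher start than that of the rises was built into the choice, which asked for a mean of at least 1 over the INTS8 libraries. The median DMSO value of all 62 genes at least 2-fold lower was 8.92, below the 17.2 of all tested genes. The 20 largest falls had a median length of 92815.5 bp against 20625 bp for the 20 largest rises, and 10 of them exceeded 100 kb. Over all 62 genes at least 2-fold lower, 41.9% exceeded 100 kb, beside 19.1% of tested genes. NUP210, a membrane protein of the nuclear pore, read 22.0 and 22.5 units per kb in DMSO and 5.90 and 5.35 after dTAG13 (log2 fold change −1.97 ± 0.09, adjusted p = 1.28e-14). DAP, a mediator of death induced by interferon gamma, read 29.7 and 30.5, then 8.07 and 8.05 (−1.89 ± 0.09, adjusted p = 2.82e-14). CRYL1, a crystallin-related dehydrogenase, read 4.96 and 4.95, then 1.13 and 1.04 (−2.09 ± 0.14, adjusted p = 1.09e-11). In all of them the replicates lay close together and the groups far apart. CYFIP2, a subunit of the WAVE complex that nucleates actin branches, fell from 8.07 and 8.39 to 2.07 and 1.98 (−1.97 ± 0.10). MAP2, a microtubule-binding protein, fell from 4.62 and 4.63 to 1.18 and 1.13 (−1.91 ± 0.12). The lipid phosphatase gene SGPP2, which acts on sphingosine 1-phosphate, fell from 6.62 and 6.97 to 2.09 and 1.80 (−1.76 ± 0.10), and LDAH, a lipid droplet hydrolase, from 13.2 and 13.5 to 4.29 and 4.14 (−1.64 ± 0.09). The kinase gene STK39, a regulator of ion cotransporters, fell from 9.05 and 10.1 to 3.43 and 2.77 (−1.60 ± 0.11).

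Whether a gene was called higher or lower went with how strongly it was transcribed before treatment, while large changes in both directions were most frequent at low levels. Genes were divided into 4 equal groups by their mean DMSO value in the INTS11 and N211del lines, whose libraries the INTS8 fold change does not use. From the lowest to the highest group the median log2 fold change was 0.44, 0.12, 0.03 and −0.09. The share called higher went from 54.8% through 38.9% and 27.0% to 17.7%, and the share called lower from 10.5% through 18.8% and 19.9% to 34.7%. Rises of at least 2-fold made up 23.6% of the lowest group and 1.34% of the highest. Falls of at least 2-fold were also most frequent in the lowest group, at 1.7%, beside 0.365% in the highest. Gene length gave no such order: from the shortest to the longest group the medians were 0.09, 0.03, 0.02 and 0.12.

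**Figure D2:**
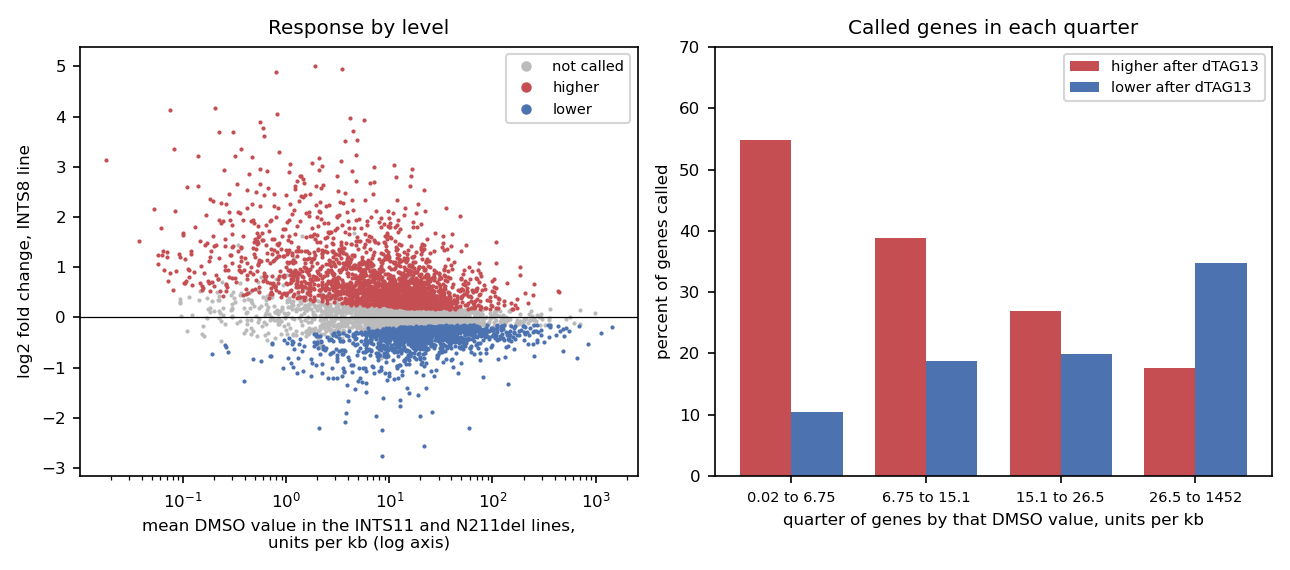
Left, log2 fold change in the INTS8 line against the mean DMSO value of the other 2 lines (units per kb, log axis), 1 point a gene, red called higher and blue called lower. Right, percent of genes called in each of the 4 groups of that value: called higher falls from 54.8% to 17.7% and called lower rises from 10.5% to 34.7%.

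Groups of functionally related genes went in different directions. Among the lists in the plot of gene lists, from which 1 list is left out, high medians were those of early transcription factor, Notch, AP-1 and MAPK feedback genes, and those with the lowest were actin cytoskeleton and ribosomal protein genes. Each list is described by its counts and its median, to be set beside 34.6%, 21.0% and a median of 0.06 for all genes. Lists differ in level. Median DMSO values were 237, 89.1 and 87.0 units per kb for ribosomal protein, heat shock and actin genes. They were 53.2 for splicing factor and 49.0 for proteasome genes. In the highest of 4 equal groups by INTS8 DMSO value (from 30.0), 17.1% were called higher and 35.0% lower. In the lowest (to 7.74) the shares were 55.4% and 10.2%. Interferon-stimulated, circadian and potassium channel genes had median values of 7.0, 7.03 and 6.1. No list was tested against genes of its own level.

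**Figure D3:**
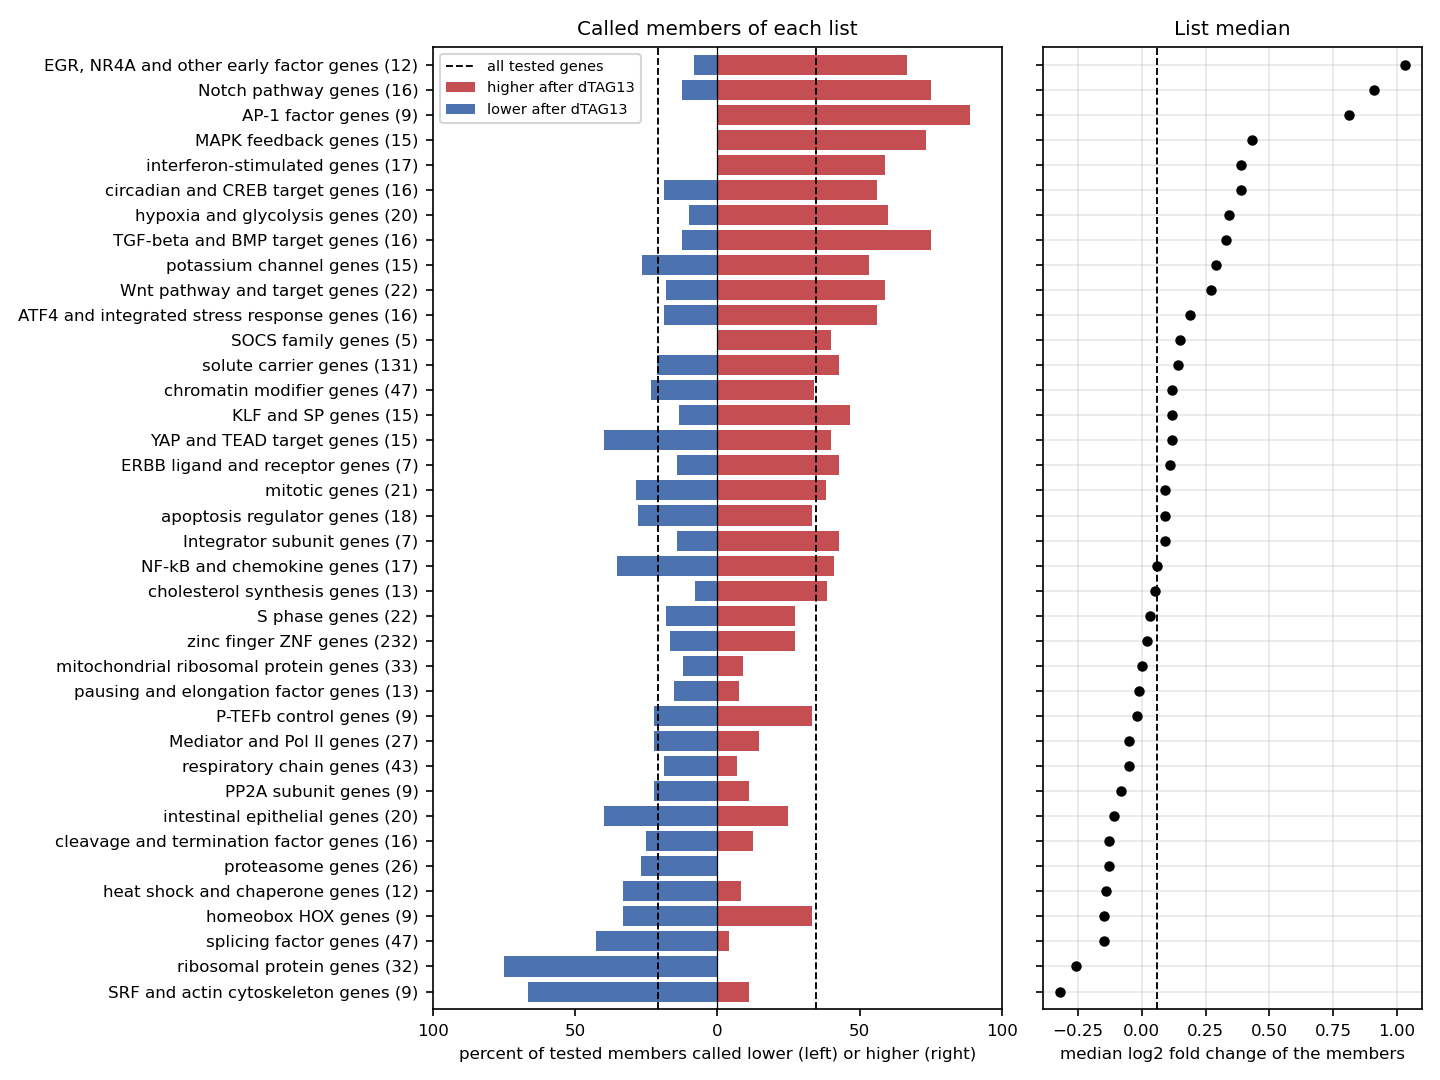
Left, percent of the tested members (number in parentheses) of each gene list called lower (blue, left) or higher (red, right), with dashed lines at 21.0% and 34.6% for all tested genes. Right, median log2 fold change of the members, dashed at 0.06 for all tested genes; medians run from 1.03 for EGR, NR4A and other early factor genes to −0.32 for SRF and actin cytoskeleton genes.

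Of the Notch pathway, most tested members rose, among them the ligand genes DLL4 and JAG1, while the ligand gene JAG2 and the receptor gene NOTCH3 fell. Notch receptors are cut when a neighbouring cell shows a Delta or Jagged ligand, and the freed fragment joins RBPJ and a MAML coactivator to switch on HES and HEY repressor genes. Of 16 tested members 12 were higher and 2 lower, with a median of 0.91 (11 and 2 with the DMSO libraries counted as 1 sample, and 12 and 2 with libraries centred). The ligand gene DLL4 rose from 4.11 and 3.39 units per kb to 50.2 in each dTAG13 library (log2 fold change 3.72 ± 0.12, adjusted p = 8.48e-13), and JAG1 from 73.6 and 78.5 to 108 and 111 (0.52 ± 0.07, adjusted p = 1.06e-06). Of the targets, HES1, a repressor that keeps gut progenitors from the secretory fate, rose from 48.7 and 55.7 to 138 and 145 (1.44 ± 0.08, adjusted p = 1.18e-12). LFNG, a sugar transferase that tunes the receptor's choice of ligand, rose from 10.4 and 10.0 to 28.5 and 29.5 (1.5 ± 0.08). MAML3 rose from 0.832 and 0.935 to 3.71 and 3.48 (1.91 ± 0.15), and RBPJ from 19.0 and 19.8 to 28.9 and 27.2 (0.53 ± 0.08). NOTCH3 read 3.91 and 3.84, then 1.93 and 1.62 (−1.09 ± 0.13, adjusted p = 3.74e-07). JAG2 read 9.16 and 8.94, then 6.24 and 7.10 (−0.44, adjusted p = 0.00949), and lost its call without dTAG13 replicate 1 (adjusted p = 0.0913). The replicates of HES6 spread widely, at 2.26 and 6.21, then 23.7 and 14.7 (2.28 ± 0.51, adjusted p = 0.00873), and its call was lost without dTAG13 replicate 1. HES4 overlapped between the groups, at 3.53 and 7.95, then 7.07 and 12.4 (0.81 ± 0.59, adjusted p = 0.298).

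**Figure D4:**
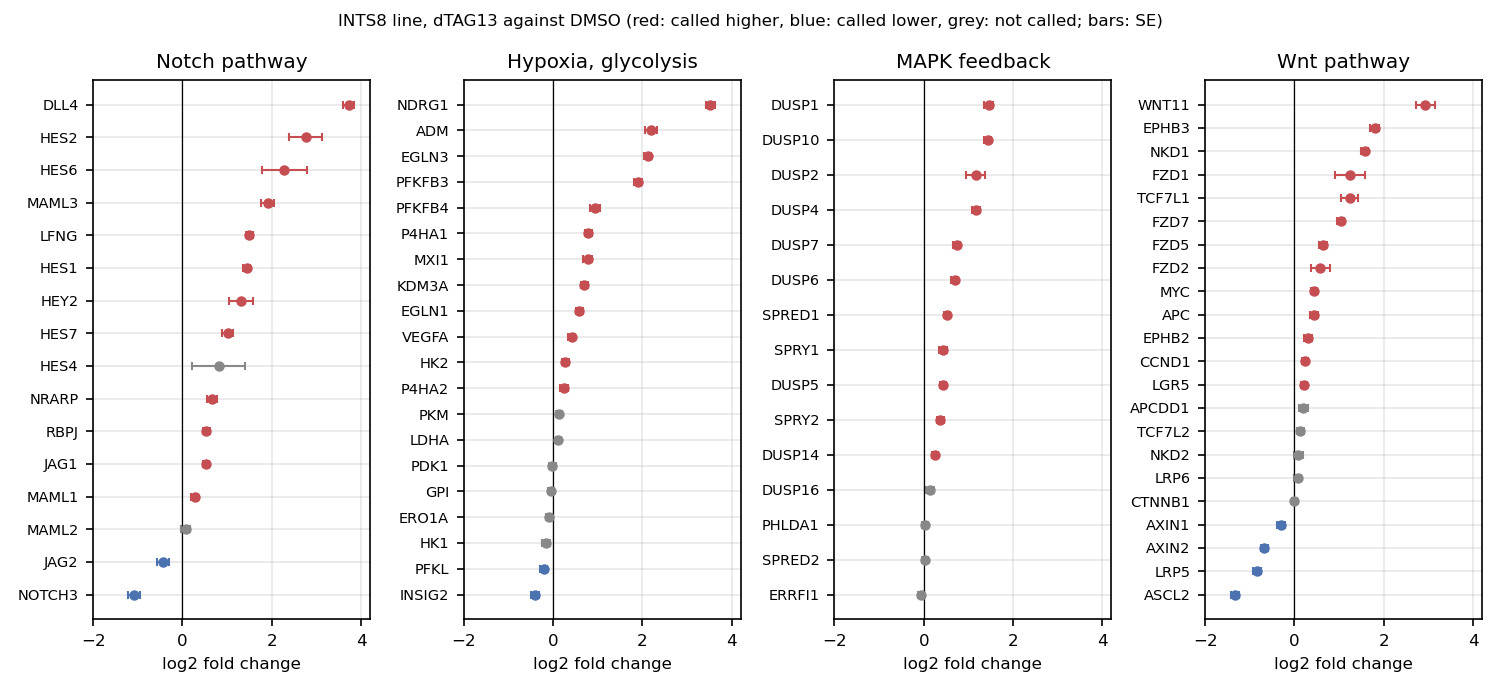
Log2 fold change after dTAG13 in the INTS8 line with its standard error for each tested member of 4 lists; red is called higher, blue called lower and grey not called. Within each list members lie on both sides of 0, from DLL4 at 3.72 to NOTCH3 at −1.09 in the Notch panel and from WNT11 at 2.93 to ASCL2 at −1.32 in the Wnt panel.

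Feedback inhibitors of the MAP kinase cascade mostly rose. The DUSP phosphatases switch off ERK, JNK and p38, and Sprouty and SPRED proteins damp the cascade closer to the receptor. Of 15 tested, 11 were called higher and 0 lower, with a median of 0.43 (10 and 1 with libraries centred). By limma at an unadjusted p under 0.05, and by voom, the counts were likewise 11 and 0. DUSP1 read 20.3 in both DMSO libraries and 55.8 in both dTAG13 libraries (log2 fold change 1.45 ± 0.10, adjusted p = 1.25e-09). DUSP10, which acts on JNK and p38, rose from 14.4 and 14.5 to 40.7 and 37.9 (1.43 ± 0.08, adjusted p = 7.08e-13). DUSP4 went from 8.06 and 7.33 to 16.6 and 17.9 (1.16 ± 0.09), and DUSP6, the phosphatase for ERK, from 86.3 and 93.3 to 142 and 148 (0.69 ± 0.07). SPRED1 and SPRY1 rose less, by 0.52 and 0.43. SPRY2 was called at 0.37 but lost its call with libraries centred, with adjusted p = 0.0519. ERRFI1, an EGFR inhibitor made on MAPK activation, read 222 and 230, then 219 and 210, and was not called (−0.07, adjusted p = 0.308).

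Upstream of that cascade, 3 of the 7 tested EGF-family ligand and receptor genes were called higher, all of them ligand genes, and 1 lower, EGFR (3 and 2 with libraries centred). HBEGF, the heparin-binding ligand of EGFR, read 9.81 and 13.1 units per kb in DMSO and 93.4 and 94.3 after dTAG13 (log2 fold change 3.04 ± 0.11, adjusted p = 2.9e-12). EGF itself rose from 0.565 and 0.575 to 3.36 and 2.90 (2.26 ± 0.18), and epiregulin, EREG, from 365 and 382 to 541 and 521 (0.51 ± 0.06). EGFR read 24.0 and 24.5, then 17.8 and 17.6 (−0.45 ± 0.08, adjusted p = 4.24e-05). The ligand genes TGFA and BTC and the receptor gene ERBB3 were not called, with log2 fold changes of 0.00, −0.31 and 0.11. 

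Early response transcription factors did not move as a block, although most rose. AP-1 is a dimer of FOS and JUN family proteins, and EGR and NR4A factors are made in the same early wave. Of 9 AP-1 genes 8 were higher and 0 lower, with a median of 0.81 (8 and 0 by limma at an unadjusted p under 0.05 and by voom, 8 and 1 with libraries centred). FOS rose from 9.70 and 11.2 to 79.0 and 84.9 (log2 fold change 2.96 ± 0.09) and ATF3 from 14.8 and 14 to 71.3 and 68.3 (2.27 ± 0.08), while JUN rose less, from 74.4 and 87.9 to 133 and 143 (0.77 ± 0.09). Of 12 EGR, NR4A and related genes 8 were higher and 1 lower, with a median of 1.03 (8 and 2 with libraries centred). EGR3 rose from 0.344 and 0.515 to 3.09 and 3.26 (2.65 ± 0.36), whereas EGR1 read 60.1 and 80.0, then 39.0 and 39.2 (−0.83 ± 0.13, adjusted p = 0.000555). Both EGR1 libraries after dTAG13 lay below both controls. NR4A1 rose from 12 and 11.5 to 26.7 and 27.5 (1.19 ± 0.10), far less than NR4A2 and NR4A3. Among 15 KLF and SP zinc finger factors 7 were higher and 2 lower (7 and 5 with libraries centred). SP6, a factor of epithelial and tooth development, rose from 10.7 and 11.5 to 60.1 and 63.1 (2.46 ± 0.08), and KLF4, a factor of differentiating gut epithelium, from 37.4 and 34.2 to 97.9 and 93.4 (1.42 ± 0.11). KLF6 fell from 131 and 137 to 87.4 and 86.1 (−0.63 ± 0.07).

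Wnt pathway genes went both ways, with more rises than falls. In colorectal cells with mutant APC, beta-catenin keeps targets such as AXIN2 and ASCL2 high. Of 22 tested members 13 were higher and 4 lower, with a median of 0.27 (10 and 3 with the DMSO libraries counted as 1 sample). The ligand gene WNT11 rose from 0.397 and 0.297 to 3.37 and 3.22 (log2 fold change 2.93 ± 0.21, adjusted p = 2.99e-10). NKD1, a feedback inhibitor that binds Dishevelled, rose from 10.5 and 10.8 to 32.1 and 31.5 (1.57 ± 0.08, adjusted p = 4.33e-13). The target EPHB3, an ephrin receptor that sorts crypt cells, rose from 9.84 and 10.5 to 34.4 and 37.3 (1.80 ± 0.10), and the receptor FZD7 from 43.3 in each library to 85.9 and 92.1 (1.04 ± 0.08). MYC rose from 200 and 220 to 269 and 301 (0.44 ± 0.07). On the other side, ASCL2, the master factor of intestinal stem cells, fell from 146 and 151 to 58.3 and 60.3 (−1.32 ± 0.09, adjusted p = 1.08e-09). AXIN2, a scaffold of the beta-catenin destruction complex, read 553 and 580, then 358 and 354 (−0.67 ± 0.07, adjusted p = 1.57e-08), and the coreceptor LRP5 17.0 and 17.9, then 10.0 and 9.44 (−0.84 ± 0.09). CTNNB1, which codes for beta-catenin, overlapped between the groups at 86.9 and 92.1, then 91.4 and 87.0.

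Genes that control apoptosis were called about as often as all tested genes, 61.1% beside 55.6%. They went both ways, 6 higher and 5 lower of 18, with a median of 0.09 beside 0.06 (6 and 3 with the DMSO libraries counted as 1 sample). Of these, 4 that rose code for BH3-only proteins, which free the killers BAX and BAK. BCL2L11, which codes for BIM, went from 30.3 and 30.7 to 101 and 95.1 (log2 fold change 1.68 ± 0.07, adjusted p = 3.36e-15), BMF from 1.91 and 1.76 to 6.15 in each dTAG13 library (1.69 ± 0.11), and PMAIP1, which codes for NOXA, from 80.7 and 79.4 to 139 and 137 (0.79 ± 0.07). BIK rose by 0.63. The survival gene BCL2 rose as well, at a low level, from 0.209 and 0.204 to 0.764 and 0.708 (1.45 ± 0.19). BID, another BH3-only gene, fell from 17.1 and 18 to 13.2 and 12.5 (−0.44 ± 0.09). MCL1 and BAK1 were not called, at −0.06 and 0.00.

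NF-kB and chemokine genes showed 7 higher and 6 lower of 17, with a median equal to that of all genes, 0.06. IL11, a cytokine of the interleukin 6 family, rose from 0.837 and 1.34 to 6.19 and 7.36 (log2 fold change 2.56 ± 0.25). IRF1, a factor of the interferon response, rose from 29.8 and 29.7 to 84.2 and 74.6 (1.41 ± 0.07), and the receptor adaptor TRAF1 from 8.44 and 8.30 to 25 and 22.9 (1.5 ± 0.09). The neutrophil chemokine gene CXCL8 fell from 90.9 and 82.6 to 63.9 in each library (−0.44 ± 0.06), and RELA, the p65 subunit, from 39.4 and 41.5 to 30.4 and 29.5 (−0.43 ± 0.08). NFKBIA, the inhibitor that NF-kB induces, was not called (−0.16, adjusted p = 0.0827). SOCS1 stood apart within its family: of 5 SOCS genes 2 were called, and the other one, CISH, was at 0.43 and lost its call with libraries centred.

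Interferon-stimulated genes, which make antiviral proteins, were mostly higher. Of 17 tested members 10 were called higher and 0 lower by limma, with a median of 0.39 (11 and 0 at an unadjusted p under 0.05, 10 and 0 by voom, and 10 and 1 with libraries centred). That is 58.8% called higher, near the share of all genes at such levels. In the lowest of 4 equal groups by INTS8 DMSO value 55.4% were called higher and 10.2% lower, with a median of 0.46. OASL, a 2′-5′ oligoadenylate synthetase-like protein, rose from 0.482 and 0.749 units per kb to 3.85 and 3.91 (log2 fold change 2.50 ± 0.25, adjusted p = 2.5e-06), and IFI6 from 8.81 and 9.30 to 34.1 and 37.9 (1.98 ± 0.10, adjusted p = 2.61e-12). The GTPase genes MX2 and MX1 rose by 1.92 and 1.17. IFIT2 overlapped between the groups at 3.05 and 2.49, then 5.12 and 2.49 (0.37 ± 0.43, adjusted p = 0.511). ISG15, at 27.8 and 28.8, then 33.6 and 45.1, just missed the call (0.46 ± 0.17, adjusted p = 0.0533).

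Hypoxia and glycolysis genes had 12 higher and 2 lower of 20, with a median of 0.34 (10 and 1 with the DMSO libraries counted as 1 sample, and 11 and 6 with libraries centred). NDRG1, a stress-induced cytoplasmic protein, rose from 2.88 and 3.08 to 34.9 and 35.7 (log2 fold change 3.52 ± 0.10, adjusted p = 8.75e-18). The hypoxia-induced peptide gene ADM rose from 24.9 and 28.8 to 125 and 121 (2.19 ± 0.13), and EGLN3, a prolyl hydroxylase that marks HIF for destruction, from 13.0 and 12.6 to 55.9 in both dTAG13 libraries (2.12 ± 0.08). PFKFB3, whose product speeds glycolysis, rose from 8.31 and 8.55 to 31.5 and 32.1 (1.9 ± 0.08). Other members moved less, with KDM3A at 0.70, EGLN1 at 0.59 and VEGFA at 0.42, and INSIG2 fell (−0.40 ± 0.09).

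Cell shape and growth programmes were mixed too. YAP and TEAD targets, which report on cell tension and density, had 6 higher and 6 lower of 15 (6 and 4 with the DMSO libraries counted as 1 sample). CCN2, a matricellular growth factor, rose from 14.4 and 15.6 to 87.3 and 98.2 (log2 fold change 2.62 ± 0.14), and GADD45B from 105 and 103 to 219 and 222 (1.08 ± 0.07), whereas F3, tissue factor, fell from 102 in both to 67.6 and 63.6 (−0.63 ± 0.07) and the ectonucleotidase gene NT5E from 12.6 and 12.9 to 7.42 and 8.23 (−0.70 ± 0.09). Actin cytoskeleton genes driven by SRF fell for 6 of 9 and rose for 1, with a median of −0.32 (5 and 1 with the DMSO libraries counted as 1 sample). FHL2 fell from 57.8 and 62.8 to 43.4 and 41.7 (−0.50 ± 0.07), ACTN4 from 96.8 and 95.4 to 73.8 and 70.1 (−0.42 ± 0.07) and ACTG1, cytoplasmic gamma actin, from 452 and 428 to 367 and 327 (−0.34 ± 0.06), while TAGLN2 rose from 58.8 and 56.9 to 81.4 and 75.0 (0.43 ± 0.07). TGF-beta and BMP targets had 12 higher and 2 lower of 16 (9 and 3 with libraries centred, 9 and 1 with the DMSO libraries counted as 1 sample). SNAI1, a repressor of epithelial genes, rose from 11.2 and 13.0 to 83.2 and 86.7 (2.80 ± 0.16), and BAMBI, a decoy receptor, from 91.3 and 85.6 to 141 and 145 (0.70 ± 0.06), while the ligand gene BMP4 fell from 830 and 885 to 585 and 609 (−0.52 ± 0.06).

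Circadian and cyclic AMP response genes had 9 higher and 3 lower of 16, with a median of 0.39. Their median DMSO value was 7.03 units per kb, within the lowest of 4 equal groups by INTS8 DMSO value. In that group 55.4% of genes were called higher and 10.2% lower, with a median of 0.46. The phosphodiesterase gene PDE4B, which CREB induces and which degrades cyclic AMP, rose from 0.602 and 0.652 to 1.76 and 1.96 (log2 fold change 1.43 ± 0.18). CRY1, a repressor of the clock, rose from 7.04 and 7.35 to 11.4 and 10.2 (0.58 ± 0.10), and CLOCK, the activator it represses, fell from 38 and 37.9 to 24.7 and 22.3 (−0.69 ± 0.08, adjusted p = 2.25e-07). PER1, PER2 and PER3 were not called, at 0.12, −0.17 and 0.09. BHLHE41, a clock repressor, read 1.80 and 2.60, then 10.8 and 7.39 (2.0 ± 0.52, adjusted p = 0.0164), and lost its call without DMSO replicate 1 or dTAG13 replicate 1.

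Stress response genes of the ATF4 list had 9 higher and 3 lower of 16 (5 and 4 with libraries centred, 6 and 2 with the DMSO libraries counted as 1 sample). ATF4 itself, the factor that amino acid and endoplasmic reticulum stress switch on, fell from 730 and 738 to 428 and 415 (log2 fold change −0.80 ± 0.06, adjusted p = 8.96e-11), and its target TRIB3 from 60.5 and 63.5 to 38.2 and 36.5 (−0.73 ± 0.08). HERPUD1, which helps degrade misfolded proteins, rose from 49.9 and 51.2 to 86.6 and 85.4 (0.77 ± 0.07), and CHAC1, a glutathione-degrading enzyme, from 42.1 and 37.5 to 52.9 in each library (0.41 ± 0.08). Of 12 heat shock and chaperone genes 1 was higher and 4 lower (0 and 8 with libraries centred, 0 and 2 with the DMSO libraries counted as 1 sample), with HSPA4 at −0.48. Of 13 cholesterol synthesis and uptake genes 5 were higher and 1 lower (4 and 4 with libraries centred, 4 and 0 with the DMSO libraries counted as 1 sample).

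Of the transcription machinery itself, pausing, PP2A, termination and Mediator genes were mostly not called, though centring the libraries added many falls. P-TEFb control and Integrator genes were called at 55.6% and 57.1%, beside 55.6% of all tested genes. Of 13 pausing and elongation factor genes 1 was higher and 2 lower (1 and 7 with libraries centred). CTR9, the scaffold of the PAF1 elongation complex, rose from 23.1 and 23.0 to 38 and 38.5 (log2 fold change 0.73 ± 0.07, adjusted p = 1.75e-08), and NELFB, a subunit of the pausing factor NELF, fell from 20.3 and 18.7 to 13.0 and 15.6 (−0.45 ± 0.09). Of 9 genes that control the kinase P-TEFb 3 were higher and 2 lower (3 and 4 with libraries centred, 3 and 0 with the DMSO libraries counted as 1 sample). HEXIM1, the inhibitor that holds P-TEFb in the 7SK particle, rose from 126 and 121 to 356 and 342 (1.5 ± 0.07, adjusted p = 1.15e-14). Of 7 Integrator genes 3 were higher and 1 lower (2 and 2 with libraries centred): NABP1, a single-stranded DNA-binding protein that joins Integrator subunits in the SOSS repair complex, rose from 95.4 and 98.5 to 190 and 185 (0.95 ± 0.06), INTS2 rose from 13.9 and 13.2 to 23.5 and 21.0 (0.71 ± 0.08) and INTS1 fell from 13.2 and 14.3 to 10.8 and 10.4 (−0.37 ± 0.08). Of 9 PP2A genes 1 was higher and 2 lower (1 and 6 with libraries centred). The regulatory subunit PPP2R3A rose from 1.83 and 1.82 to 3.06 and 3.05 (0.71 ± 0.14), and TIPRL, a PP2A-binding inhibitor, fell from 17.6 and 19.4 to 14 and 12.8 (−0.46 ± 0.09). Of 16 cleavage and termination genes 2 were higher and 4 lower (2 and 10 with libraries centred). ZC3H4, which restricts non-coding transcription, rose from 27.0 and 26.2 to 49.8 and 46.6 (0.86 ± 0.07), and the polymerase phosphatase gene SSU72 fell from 31.3 and 31.4 to 24.3 and 25.2 (−0.34 ± 0.07). Of 27 Mediator and polymerase genes 4 were higher and 6 lower (3 and 14 with libraries centred, 4 and 2 with the DMSO libraries counted as 1 sample), from MED26, which recruits elongation complexes, at 0.79 to POLR2D at −0.47.

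Larger gene families contained both large rises and large falls. Of 131 solute carrier genes 56 were higher and 28 lower (50 and 39 with libraries centred, 45 and 17 with the DMSO libraries counted as 1 sample). The organic anion transporter gene SLC22A11 rose from 0.945 and 0.532 to 6.85 and 6.38 (log2 fold change 3.05 ± 0.24, adjusted p = 7.07e-07), and the glutamate transporter SLC1A1 fell from 26.9 and 27.3 to 12.6 and 11.9 (−1.14 ± 0.08, adjusted p = 2.04e-11). Of 15 potassium channel genes 8 were higher and 4 lower, with KCNK5, a leak channel, rising from 12.5 and 12.7 to 28.3 and 27.1 (1.13 ± 0.08) and KCNH2, the cardiac rectifier, falling from 3.03 and 2.61 to 1.68 and 1.95 (−0.61 ± 0.14). Zinc finger genes with ZNF symbols stood below the background for rises, 63 higher and 39 lower of 232 (57 and 88 with libraries centred, 53 and 25 with the DMSO libraries counted as 1 sample), from ZNF575 at 1.93 to ZNF280D at −1.41. Of 47 chromatin modifier genes 16 were higher and 11 lower (16 and 18 with libraries centred, 17 and 6 with the DMSO libraries counted as 1 sample). The H3K4 demethylase gene KDM5B rose from 7.91 and 8.16 to 16.4 and 17.6 (1.07 ± 0.10), and CHD9, a remodeller, fell from 14.4 and 14.5 to 7.82 and 6.92 (−0.97 ± 0.09).

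Lineage, cell cycle, proteasome and respiratory chain lists are to be read beside 34.6% higher and 21.0% lower of all tested genes. Called in either direction were 65.0% of intestinal epithelial, 66.7% of HOX, 45.5% of S phase and 66.7% of mitotic genes. For proteasome and respiratory chain genes the shares were 26.9% and 25.6%, beside 55.6% of all tested genes. Of 20 intestinal epithelial genes 5 were higher and 8 lower, with a median of −0.11 (4 and 5 with the DMSO libraries counted as 1 sample). MUC13, a membrane mucin, rose from 4.37 and 5.05 to 17.5 and 17.0 (log2 fold change 1.85 ± 0.13). EPCAM fell from 150 and 153 to 126 and 122 (−0.28 ± 0.06) and KRT18 from 1146 and 1150 to 935 in each library (−0.30 ± 0.06). CDX2 was called higher by limma (0.19 ± 0.07, adjusted p = 0.0263) but lost its call with libraries centred (adjusted p = 0.274). CDH1 and CDH17 were not called, at 0.06 and −0.17. Of 9 homeobox HOX genes 3 were higher and 3 lower (3 and 6 with libraries centred): HOXD9 rose from 4.96 and 7.21 to 16.2 and 16.7 (1.44 ± 0.26) and HOXA7 from 20.8 and 27.7 to 41.5 and 42.2 (0.80 ± 0.11), while HOXB6 fell from 275 and 297 to 198 and 210 (−0.48 ± 0.07). Of 22 S phase genes 6 were higher and 4 lower (5 and 9 with libraries centred, 4 and 1 with the DMSO libraries counted as 1 sample), and of 21 mitotic genes 8 were higher and 6 lower (7 and 9, and 6 and 3). The G1 cyclin CCNE1 rose from 18.9 and 17.0 to 26.4 and 23.9 (0.48 ± 0.09), and CCNB1, the mitotic cyclin, fell from 98.5 and 97.0 to 78.1 and 70.1 (−0.40 ± 0.07). Of 26 proteasome genes limma called 0 higher and 7 lower (1 and 8 at an unadjusted p under 0.05, 0 and 7 by voom, 0 and 1 with the DMSO libraries counted as 1 sample). Of 43 respiratory chain genes 3 were higher and 8 lower (3 and 5 with the DMSO libraries counted as 1 sample). With libraries centred the counts were 0 and 18, and 3 and 21.

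Cytoplasmic ribosomal protein genes fell by small amounts. Of 32 tested members limma called 0 higher and 24 lower, with a median of −0.26 (0 and 29 at an unadjusted p under 0.05, 0 and 22 by voom, 0 and 18 with the DMSO libraries counted as 1 sample). RPL22L1, a paralog of a large subunit protein, fell from 156 in both DMSO libraries to 93.8 and 88.3 (log2 fold change −0.78 ± 0.07, adjusted p = 2.13e-09), RPSA from 397 and 386 to 289 and 268 (−0.49 ± 0.06) and RPS15A from 165 and 172 to 127 and 121 (−0.45 ± 0.06). Processed pseudogenes of this family can share their reads. Mitochondrial ribosomal protein genes had 3 higher and 4 lower of 33, with a median of 0.00 (1 and 12 with libraries centred, 1 and 0 with the DMSO libraries counted as 1 sample). Splicing factor genes had 2 higher and 20 lower of 47, with a median of −0.15 (0 and 34 with libraries centred, 0 and 11 with the DMSO libraries counted as 1 sample). SRSF4 fell from 69.4 and 69.8 to 49.7 and 45 (−0.56 ± 0.08), SRSF3 from 248 and 253 to 184 and 164 (−0.53 ± 0.07) and HNRNPF from 159 and 166 to 120 and 116 (−0.46 ± 0.06).

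Genes lying within 10 kb of a gene at least 2-fold higher had medians near that of all genes. The next gene in the same orientation had a median log2 fold change of −0.06 over 25 pairs. Of the 25, 2 were themselves at least 2-fold higher, beside 8.28% of all tested genes. The median was 0.07 over 19 divergent pairs and 0.13 over 34 convergent pairs, with 0 such partners in either. The sources used here do not say whether the counting used strand, and reads of overlapping or antisense genes may be shared.

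The INTS8 libraries list 159 genes that are not listed for every line of batch 1 and so lie outside the tests above. In the 4 INTS8 libraries alone, where 6723 genes were tested and limma called 2581 higher (38.4%) and 1537 lower (22.9%), 143 of the 159 could be tested, and 97 were called higher and 5 lower. The sources used here do not say by which rule a gene is listed for a line. A gene listed only through its treated libraries had to be higher, so these 2 counts are not to be read against the shares of all genes. The genes named here were chosen after their values were seen, and no p is given for them. RASD1, a Ras-like protein induced by glucocorticoids, read 0.511 units per kb in both DMSO libraries and 22.0 and 18.9 after dTAG13 (log2 fold change 5.07). SPAAR, which codes for a lysosomal micropeptide, read 0.465 in both and 9.31 in both (4.06). The transcription factor gene MAF read 0.145 and was listed at 0 in DMSO, and read 3.34 in both dTAG13 libraries.

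The same genes were then followed in the other 2 lines, whose libraries are separate. Over all 6579 genes the INTS11 line had 19.4% called higher and 19.8% called lower, and the N211del line 48.5% and 7.1%. Of the 545 genes at least 2-fold higher in the INTS8 line, 441 (80.9%) were called higher in the INTS11 line, with a median log2 fold change of 0.69, and 519 (95.2%) in the N211del line, with a median of 1.30, beside 1.44 in the INTS8 line. Of the 62 at least 2-fold lower, 42 (67.7%) were called lower in the INTS11 line (median −0.37) and 60 (96.8%) in the N211del line (median −0.84, against −1.21). Called in the opposite direction by limma were 0 of the 545 and 0 of the 62 in either line, also 0 at an unadjusted p under 0.05 and 0 by voom. Since the genes were picked for their size in the INTS8 line, smaller medians elsewhere are a description.

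**Figure D5:**
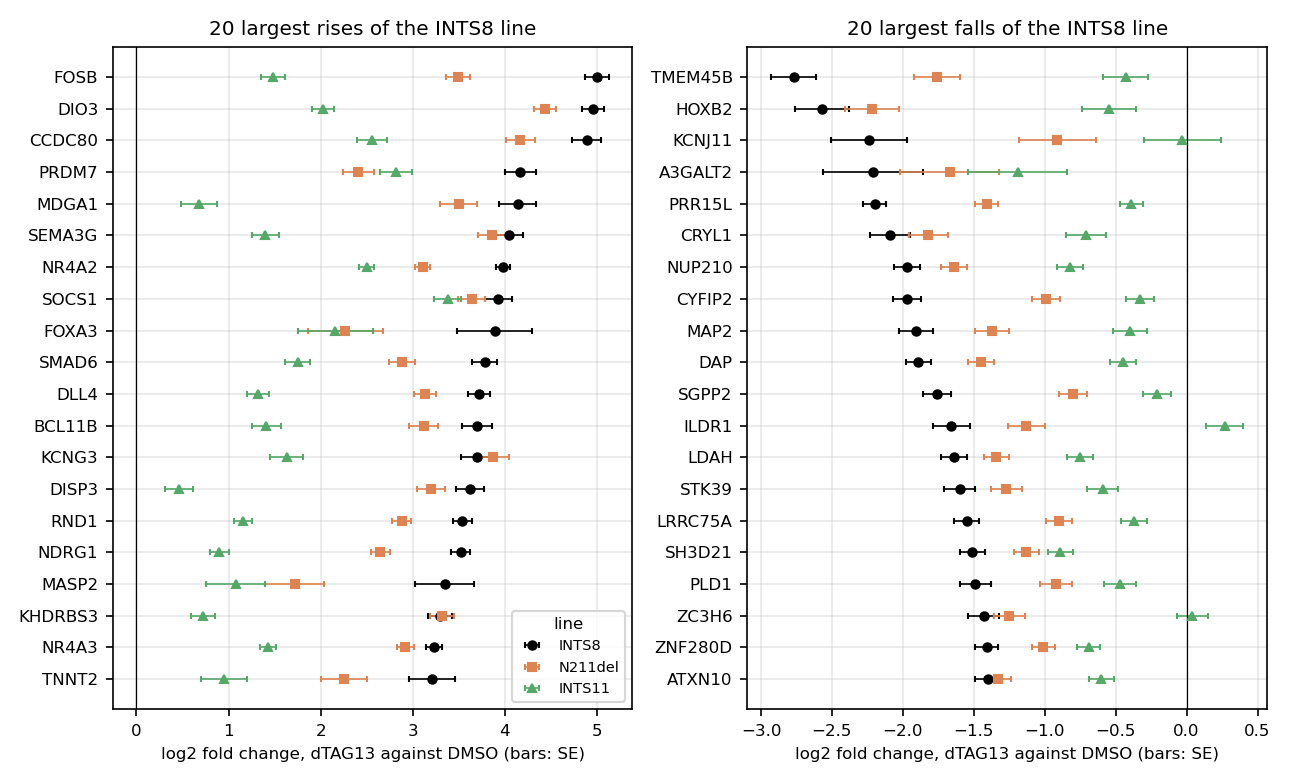
Log2 fold change after 3 h of dTAG13 against DMSO, with its standard error, for the 20 largest rises (left) and the 20 largest falls (right) of the INTS8 line, shown for the INTS8 (black), N211del (orange) and INTS11 (green) lines. All 20 rises were called higher in the other 2 lines; 20 of the falls were called lower in the N211del line. In the INTS11 line 16 were, and ILDR1 and ZC3H6 lay above 0.

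The difference of responses was tested directly in the same fit. Against the INTS11 line, 1278 genes (19.4%) responded more positively in the INTS8 line and 395 (6.0%) more negatively. Centring each library turned that split, to 1125 and 1373, and averaging pairs within counting noise left 715 and 179. RGS2, which quenches G protein signals, read 5.87 and 7.11 units per kb in DMSO and 51.6 and 52.9 after dTAG13 in the INTS8 line (log2 fold change 3.00), was not called in the INTS11 line (0.25, adjusted p = 0.403), and differed by 2.75 ± 0.31 (adjusted p = 0.000447). FOS differed by 2.43 ± 0.13 and RND1 by 2.38 ± 0.14, both higher in the INTS8 line. SOCS1 stood at 3.93 and 3.38, a difference of 0.55 ± 0.21 that did not pass (adjusted p = 0.0772). ILDR1, a tight junction protein, fell in the INTS8 line from 4.99 and 5.64 to 1.81 and 1.43 (−1.66) and was not called in the INTS11 line (0.27), a difference of −1.93 ± 0.19.

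Against the N211del line fewer genes differed, 132 (2.01%) more positive and 595 (9.04%) more negative in the INTS8 line. Centring each library turned that split, to 469 and 287, and averaging pairs within counting noise left 46 and 26. ENO3, muscle enolase, rose from 3.05 and 4.28 to 30.2 and 34.4 in the INTS8 line (log2 fold change 3.12), against 1.77 in the N211del line, a difference of 1.35 ± 0.19 (adjusted p = 0.00125). NNMT, which methylates nicotinamide, rose from 0.274 and 0.329 to 3.29 and 2.35 (2.85) and differed by 1.61 ± 0.30 (adjusted p = 0.00569). SOX7, an endodermal factor, fell from 4.0 and 4.46 to 1.69 and 1.85 (−1.21), was not called in the N211del line (0.20), and differed by −1.41 ± 0.28 (adjusted p = 0.0101). CHAC1 rose by 0.41 in the INTS8 line and fell in the N211del line (−0.37), a difference of 0.78 ± 0.12 (adjusted p = 0.000454). KCNG3 and KHDRBS3, among the 20 largest rises, stood at 3.70 and 3.30 in the INTS8 line and 3.87 and 3.32 in the N211del line, differences of −0.18 ± 0.25 and −0.01 ± 0.19. Without N211del dTAG13 replicate 1 the more negative genes numbered 2372, and they numbered 110 without INTS8 dTAG13 replicate 2 and 143 to 228 without any other library except INTS8 dTAG13 replicate 1. The more positive genes numbered 70 to 82 without any 1 of the DMSO or INTS8 dTAG13 libraries.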

How the data were processed

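TT-seq libraries of 4 INTS8-dTAG samples (2 DMSO, 2 dTAG13, 3 h) were analysed with the other 8 libraries of batch 1, which share 1 estimate of spread. The column is called FPKM, per the file headers, but each value is a whole number divided by gene length in kb, with no sequencing depth factor seen. The values were used as the authors deposited them, as signal in units per kb. The sources used here do not say whether a library factor came before rounding. The submitters' processing notes name STAR 2.7.5c, DESeq2 1.26.0, Picard 2.23.3, SAMtools 1.9 and Trim Galore 0.6.6, and the builds hg19 and mm10, with no role for each.

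Of 6603 genes listed in all 12 libraries, 6579 with a mean of at least 0.1 were tested by limma 3.58.1 (R 4.3.3) on log2(value + 0.1), with 1 mean per group and trended, robust empirical Bayes spread, two-sided, Benjamini-Hochberg adjusted over all tested genes. A call is an adjusted p under 0.05. Alternatives were other pseudocounts and filters, centring, a replicate block, the 4 libraries alone, averaging of pairs within counting noise, voom on the units, a gene length correction and each library left out. Same-numbered INTS8 libraries did not deviate together (r = 0.024), so replicate numbers were not used as pairs. Named genes are the 20 largest called rises and 20 largest falls with a mean of at least 1 over the INTS8 libraries and groups that do not overlap, without non-coding or uncharacterised loci, any member of lists of up to 25 genes, the 4 most changed per direction in longer lists, the 6 largest differences per direction between lines, and the cell type markers. Members and lists were chosen with earlier results of these data known. Some genes and 1 list are not reported here. Promoter windows are RefSeq's, matched by symbol. Tables and plots used Python 3.11.15, numpy 2.4.6, pandas 2.3.3 and matplotlib 3.10.9. The procedure was tested on simulated data with far fewer changed genes than were called here. That test does not measure the error rate of the calls above.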

Additional observations from a re-analysis of the deposited data

Results flagged for a closer look

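Genes whose response to dTAG13 differed between the INTS8 line and another line, by a test of the difference itself, stand out in 2 sets. Against the INTS11 line, 1278 genes responded more positively in the INTS8 line and 395 more negatively (1125 and 1373 with libraries centred). The 6 largest positive differences in log2 fold change were FOSB 3.52, DISP3 3.17, DIO3 2.93, RGS2 2.75, SEMA3G 2.65 and NDRG1 2.62. The 6 largest negative ones were TMEM45B −2.34, KCNJ11 −2.21, HOXB2 −2.02, ILDR1 −1.93, PRR15L −1.82 and CYFIP2 −1.64. All 12 kept their call in each of the 18 alternatives.

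Against the N211del line, 132 genes responded more positively and 595 more negatively (469 and 287 with libraries centred, 46 and 26 with pairs within counting noise averaged). The 6 largest positive differences were PRDM7 1.76, MASP2 1.62, NNMT 1.61, SLC22A11 1.53, FOSB 1.51 and ENO3 1.35. The 6 largest negative ones were SOX7 −1.41, RAB9B −1.36, VSTM5 −1.12, TMEM45B −1.01, CYFIP2 −0.98 and SGPP2 −0.96. RAB9B, a small GTPase of endosomes, was not called in the INTS8 line itself (−0.10), where it read 1.51 and 1.01 units per kb in DMSO and 1.31 and 1.01 after dTAG13. MASP2 lost the call of this difference with a pseudocount of 0.01 (adjusted p = 0.0845), with a replicate block (adjusted p = 0.0593) and without each N211del or INTS8 dTAG13 library (up to 0.16). SLC22A11, RAB9B and TMEM45B lost theirs without INTS8 dTAG13 replicate 2 (adjusted p = 0.0696, 0.0573 and 0.0854) and without 1 or 2 of the N211del libraries (up to 0.0912).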

How the results depend on the processing

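Of the 40 genes with the largest changes in the INTS8 line, 0 changed their call in any of the 14 alternatives, and no named gene that was called changed direction. Centring turned the split of higher against lower genes in all 3 comparisons. Higher genes numbered 1799 to 2581 across them, against 2277. Lower genes numbered 1379, but 2398 with libraries centred, 836 with pairs within counting noise averaged, and 904 to 1329 with 1 library left out, the fewest without dTAG13 replicate 2. With a pseudocount of 1, genes changed at least 2-fold numbered 360 higher and 37 lower. A replicate block, although the numbers do not pair the samples, gave 2248 higher and 1346 lower.

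For the difference from the INTS11 line (1278 and 395), centring gave 1125 more positive and 1373 more negative genes and averaging 715 and 179; the block gave 1254 and 397. For the difference from the N211del line (132 and 595) the counts were 469 and 287 with centring, 46 and 26 with averaging and 146 and 572 with the block. The more positive genes numbered 222 with only the 8 libraries of these lines, and voom gave 1173 more negative. Leaving out 1 library gave 70 to 150 more positive genes and 110 to 2372 more negative ones. The cause of these shifts was not tested. Genes with few units in DMSO have loosely known folds, and 2 libraries a group limit what small changes can be called.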

Other observations

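Further values come from the 159 genes of the INTS8 libraries that lie outside the tests of all batch 1 lines; those named were chosen after their values were seen, and listing itself may have come through the treated libraries. PGF, placental growth factor, read 0.363 and 0.291 units per kb in DMSO and 5.08 and 4.65 after dTAG13 (log2 fold change 3.54). APLN, the peptide apelin, read 0.619 and 0.309, then 4.85 and 4.33 (3.11), and EDN2, an endothelin, 0.846 and 1.02, then 7.28 and 6.94 (2.81). The growth factor receptor gene FGFR3 read 0.321 and 0.449, then 3.40 and 4.49 (3.06), and EGR2 read 0.459 and 0.230, then 2.07 and 2.30 (2.41). In each of these genes both dTAG13 libraries lay above both DMSO libraries, which follows from how they were chosen. The same held for 3056 of the 6579 genes tested in all lines.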
